A study of Oryza sativa Japonica Group with 96 samples.

Results

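The TIFY genes of rice encode small nuclear proteins named after a conserved TIFY motif, and most of them belong to the JASMONATE ZIM-DOMAIN (JAZ) repressors of the hormone jasmonate. Of these, 8 were followed here, chosen by name as 8 features out of the 36643 on the array: TIFY6A (LOC4345625), TIFY10A (LOC4333065), TIFY10B (LOC4343899), TIFY11A (LOC4331832), TIFY11C (LOC4331833), TIFY11D (LOC4348533), TIFY11E (LOC4348531) and TIFY8 (LOC4330630). Each of the 8 features carries exactly 1 gene symbol. JAZ numbers are not used below, because the gene table gives some of them to more than 1 gene.

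The measurements come from stem bases, the organ from which rice forms its crown roots, of Oryza sativa cv. Taichung 65. Both lines carried the crl1 mutation, which blocks crown root formation. DXC plants (line DXC3, a single line) carried the pINDEX2 vector with CRL1 (Os03g0149100), a LOB-domain transcription factor gene that dexamethasone switches on in this vector, and DX plants carried the same vector empty. Plantlets of both lines were kept for 5 days in dishes at 27 °C with 14 h of daylight and rested for 24 h in flasks. Both then received 1 µM dexamethasone in ethanol, which was washed out at 5 h by renewing the medium, so the comparison of DXC with DX holds the drug and the handling constant. Stem bases were taken every 3 h between 0 and 45 h in 3 independent experiments, giving 16 hours, 2 lines and 96 single-colour arrays, with 8 to 12 stem bases pooled in each RNA.

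JAZ proteins bind MYC-type transcription factors and, through the adaptor NINJA, bring TOPLESS co-repressors to jasmonate-responsive promoters. When the active hormone, jasmonoyl-isoleucine, is present, the F-box receptor COI1 binds the C-terminal Jas motif of the repressor and marks it for degradation. The JAZ genes are themselves among the early transcriptional targets of this release, so their transcripts are widely used as a readout of jasmonate signalling. TIFY8 stands outside the JAZ subfamily: its Arabidopsis counterpart lacks a Jas motif yet interacts with NINJA.

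Values are log2 expression values as deposited, and each array's median lay between 4.62 and 4.76. The 8 features fell into 2 brightness classes. TIFY6A, TIFY10A, TIFY10B and TIFY11D had mean values over the 96 arrays of 6.57, 5.67, 6.58 and 6.29, above the median of all features (4.69). TIFY11A, TIFY11C, TIFY11E and TIFY8 averaged 3.97, 3.96, 3.73 and 3.74 and are dim features, below that median. Of 8 KNOX genes listed for the shoot meristem, 5 lay above the median of all features, led by OSH3 (6.03) and OSH1 (5.31). OSH6 (4.55), OSH10 (3.74) and OSH43 (3.23) lay below it. All 7 leaf photosynthesis features lay above that median, up to 9.28. No feature of the array was tied to CRL1 in the tables used here, so the induction itself was not analysed here. In bulk RNA, fewer cells of a type and less RNA per cell cannot be told apart.

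Across all hourly comparisons with 0 h and between the lines, 1 member at 1 hour passed the test, TIFY8 at 6 h, which was lower in DXC. With 3 arrays per group, the members that did not pass are given by their values and not as unchanged. The range of the 16 hourly means in DXC ran between 0.47 for TIFY6A and 0.98 for TIFY10B, and in DX between 0.39 for TIFY6A and 0.82 for TIFY11D. Median standard deviations among the 3 arrays of an hour were 0.15 to 0.39 in DXC and 0.16 to 0.28 in DX.

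**Figure D1:**
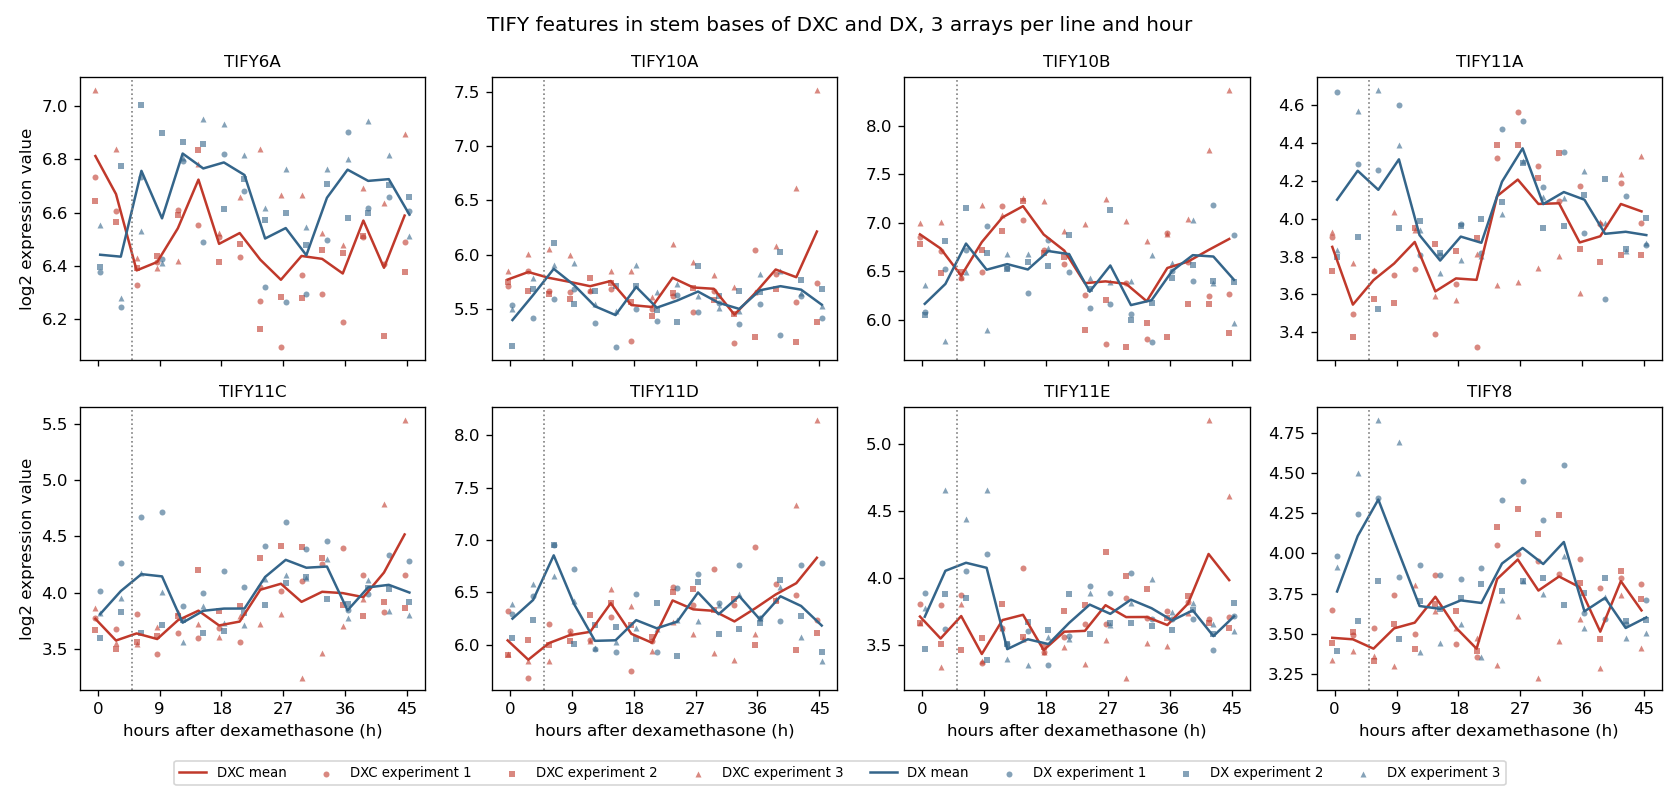
Log2 expression values (y axis, each panel with its own range) of the 8 TIFY features against hours after dexamethasone (x axis). Lines join the means of 3 arrays, points are single arrays with a symbol for each experiment, red is DXC and blue is DX, and the dotted line marks the renewal of the medium at 5 h. The DXC points of experiment 3 leave the others at 42 and 45 h for TIFY10A, TIFY10B, TIFY11C, TIFY11D and TIFY11E, and TIFY8 has its widest gap between the lines at 6 h.

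Before induction, at 0 h, none of the 8 features passed the test between the lines (limma, a linear model for each feature with variances moderated across features; Benjamini-Hochberg adjusted p under 0.05 over all features; 1 had an unadjusted p under 0.05), where 10 features of the array did, 0.0273% of those tested. TIFY10B had 6.86, 6.79 and 7.0 in the DXC arrays of experiments 1 to 3, against 6.09, 6.05 and 6.36 in the DX arrays. The 3 DXC values stood above the 3 DX values, by 0.71 on average (SE 0.37, limma adjusted p = 0.393). TIFY6A had 6.73, 6.64 and 7.06 in DXC, against 6.38, 6.40 and 6.55 in DX, a difference of 0.37 (SE 0.16, limma adjusted p = 0.337). TIFY10A also had every DXC array above every DX array. These 3 of 8 compare with 12.1% of all features whose DXC arrays stood wholly above the DX arrays at 0 h.

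At 6 h, 1 h after the drug was removed, TIFY8 was lower in DXC. It had 3.54, 3.33 and 3.36 in the DXC arrays, against 4.35, 3.83 and 4.83 in the DX arrays. The DXC values lay close together and below all 3 DX values, which spread over about 1 log2 unit. The difference was -0.93 (SE 0.24, limma adjusted p = 0.0388 over all features and 15 hours), a 1.90-fold lower level. At that hour 3.44% of all features were called, and 0.933% of all features were called lower, so 1 of 8 members called is to be read against that share. The call was lost without either experiment 1 or experiment 3: without experiment 1 the difference was -0.98 (limma adjusted p = 0.391) and without experiment 3 it was -0.65 (limma adjusted p = 0.510).

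The spread of the array values moved with this result. The SD over all features of an array was 1.63 to 1.68 in the 3 DXC arrays at 6 h, and 1.40 to 1.61 in the 3 DX arrays. Over stretches of 4 consecutive hours of a line and experiment, TIFY8 averaged 4.11 to 4.48 in the 4 stretches with the lowest spread and 3.35 to 3.97 in the other 20. The DX arrays of experiments 1 and 3 at 0 to 9 h are among those 4 stretches, with a mean SD of 1.49 and 1.44. They hold the 2 highest TIFY8 values at 6 h (4.35 and 4.83). The DX arrays of experiment 2 had a mean SD of 1.62, and TIFY8 had 3.83 there at 6 h. With the arrays brought to one distribution by quantile normalization, the TIFY8 difference at 6 h was -0.84 (limma adjusted p = 0.0408). TIFY11A followed the spread in the same way, at 4.34 to 4.45 in those 4 stretches and 3.53 to 4.31 in the others. TIFY11C, TIFY11D and TIFY11E were raised there too, at 3.99 to 4.47, 6.45 to 6.61 and 3.89 to 4.38. Their medians in the others were 3.87, 6.19 and 3.66, with ranges that overlapped. TIFY10A (5.50 to 5.78) lay around its median of 5.64 in the others, and TIFY10B (5.94 to 6.57) below its median of 6.63. TIFY6A, a bright feature, ran the other way in part, with 6.30 to 6.45 in the 4 stretches and 6.25 to 6.88 in the others. What share the spread had in the line differences of TIFY8 and of the other members was not tested.

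**Figure D2:**
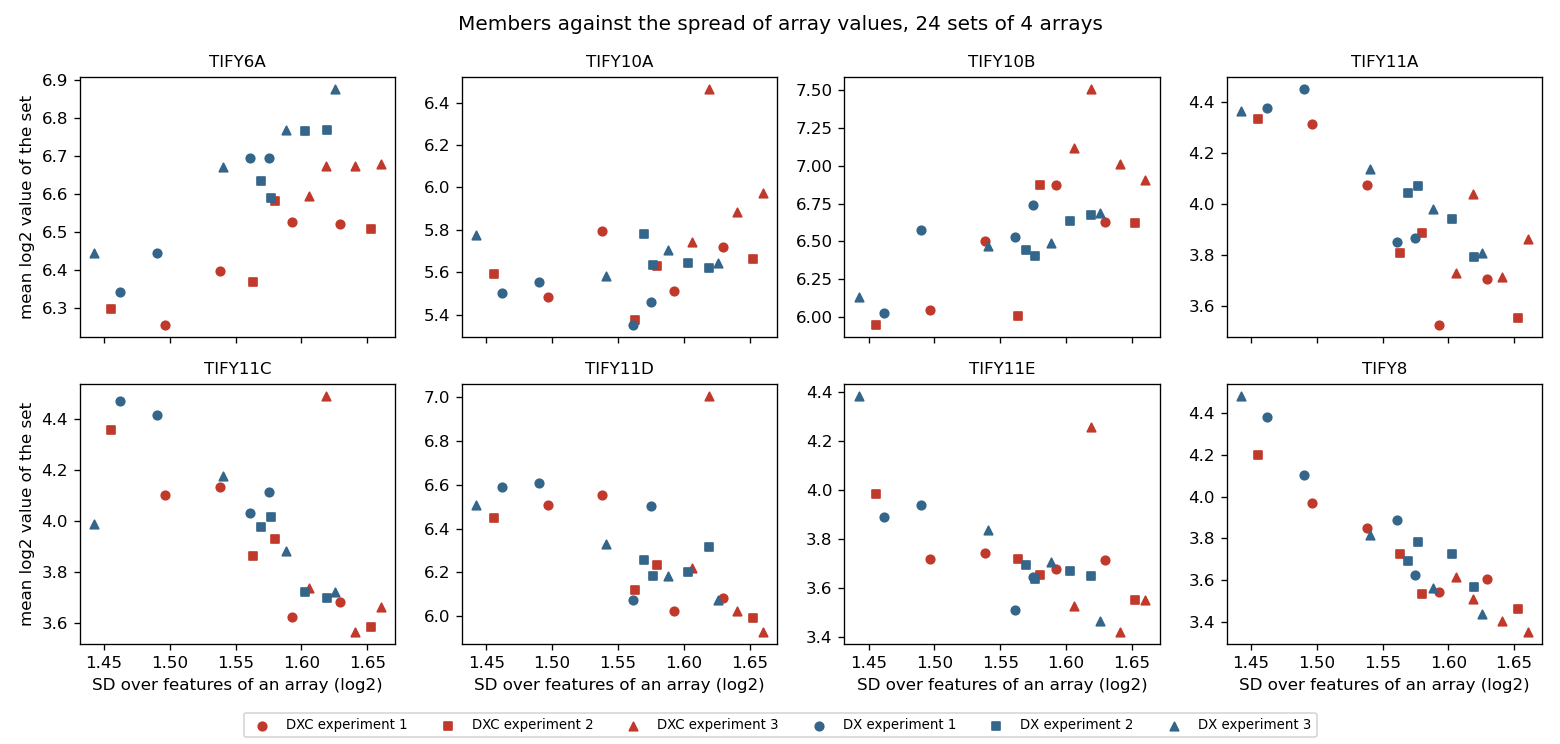
Mean log2 value of each TIFY feature (y axis) over 24 stretches of 4 consecutive hours of 1 line and experiment, against the SD over all features of their arrays (x axis, log2 units). Red symbols are DXC and blue symbols are DX, with a shape for each experiment. TIFY8 and TIFY11A stand highest in the 4 stretches with the lowest spread, where TIFY11C, TIFY11D and TIFY11E also lie above their medians of the other stretches.

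The other members at 6 h lay on the same side of 0 without passing the test. TIFY11D had 6.2, 6.0 and 5.84 in DXC, against 6.95, 6.95 and 6.65 in DX. The 2 lines did not overlap, and the difference was -0.84 (SE 0.28, limma adjusted p = 0.150). TIFY6A had 6.33, 6.39 and 6.43 in DXC, against 6.74, 7.0 and 6.53 in DX, again without overlap, with a difference of -0.37 (SE 0.16, limma adjusted p = 0.303). After quantile normalization this TIFY6A difference became -0.67 (limma adjusted p = 0.0001). All 8 estimates at 6 h were below 0, with a median of -0.44 against 0.02 over all features. Of the 8, 5 had an unadjusted p under 0.05 by limma, a count without the share of all features beside it. At 6 h the arrays of the 2 lines did not overlap for 30.6% of all features, so that count is not read as particular to the members. TIFY10A was the member nearest to 0 (-0.08).

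The hours on either side showed part of the same picture. At 3 h, with dexamethasone still present, 5 of 8 estimates were below 0 and none was called by limma (4 had an unadjusted p under 0.05), where 0.606% of all features were called. TIFY11A had the lowest adjusted p there, with 3.5, 3.37 and 3.77 in DXC, against 4.29, 3.90 and 4.57 in DX. Its groups did not overlap, and the difference was -0.71 (SE 0.21, limma adjusted p = 0.106). TIFY11A, TIFY11C, TIFY11D and TIFY8, 4 of 8, had all DXC arrays below all DX arrays at 3 h, where 12.5% of all features did. At 6 h it was TIFY6A, TIFY11D and TIFY8, 3 of 8 against 15.2%, and at 9 h it was TIFY11C alone, against 11.2%. At 9 h limma called none of the 8 (3 with an unadjusted p under 0.05), where 2.46% of all features were called. Over the 15 hours between 3 and 45 h, 1 of 120 member differences was called, against 0.648% of all features and hours, and 17 of the 120 had an unadjusted p under 0.05. All but 5 of those 17 fell at 3, 6 or 9 h. Over all features, too, the arrays of the 2 lines failed to overlap most often at these hours. The shares were 28.8%, 30.6% and 24.2% at 3, 6 and 9 h, against 5.11% at 24 h. The share of all features with an unadjusted p under 0.05 is not given here. Later hours also had members with all DXC arrays above all DX arrays. At 12 h these were TIFY10A, TIFY10B and TIFY11E, 3 of 8 against 7.62% of all features. At 15 h they were TIFY10B and TIFY11D, 2 of 8 against 5.82%, and at 42 h TIFY11E and TIFY8, 2 of 8 against 6.26%.

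To take out what the lines already differed by, the mean difference over 3 windows was set against the difference at 0 h. In the early window, 3 to 9 h, all 8 estimates were below 0, with a median of -0.43 against 0.00 over all features, and they ran between -0.61 for TIFY10B and -0.32 for TIFY10A. limma called none of the 24 estimates (3 had an unadjusted p under 0.05), where 0.333% of all features were called in the early, 0.347% in the middle (12 to 24 h) and 0.248% in the late window (27 to 45 h). The early estimates of TIFY10A and TIFY10B were below 0 only after their higher 0 h values in DXC were subtracted: without the subtraction the early differences were 0.05 and 0.11, above 0. Without it TIFY11A, TIFY11C, TIFY11D, TIFY11E and TIFY8 were called lower in the early window, at -0.58, -0.51, -0.57, -0.51 and -0.68, but so were 28.5% of all features.

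TIFY6A lay below 0 in all 3 windows, which share the subtracted 0 h difference of 0.37. Relative to 0 h it stood at -0.47 (SE 0.18, limma adjusted p = 0.556) in the early, -0.56 (SE 0.17, limma adjusted p = 0.162) in the middle and -0.56 (SE 0.17, limma adjusted p = 0.145) in the late window. Without the subtraction the TIFY6A differences were smaller, at -0.10 in the early (limma adjusted p = 0.327), -0.19 in the middle (limma adjusted p = 0.110) and -0.19 in the late window (limma adjusted p = 0.0471). In that late comparison 2.93% of all features were called lower. By experiment the late value relative to 0 h was -0.57, -0.51 and -0.59, and the early value -0.38, -0.68 and -0.36, so all 3 experiments lay below 0 in both. The difference combined a lower DXC level, by -0.40, -0.29 and -0.41 in the late window relative to 0 h, with a higher DX level, by 0.17, 0.22 and 0.18. TIFY6A had its highest mean in DXC at 0 h (6.81 ± 0.22, SD, n = 3) and its lowest at 27 h (6.35 ± 0.29), while in DX the highest came at 12 h (6.82 ± 0.04) and the lowest at 3 h (6.43 ± 0.30). Beside 6 h, all its DXC arrays lay below all DX arrays at 12, 18, 21, 36 and 42 h, where 8.15%, 5.91%, 5.89%, 5% and 5.54% of all features did. No other member did so at those 5 hours.

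**Figure D3:**
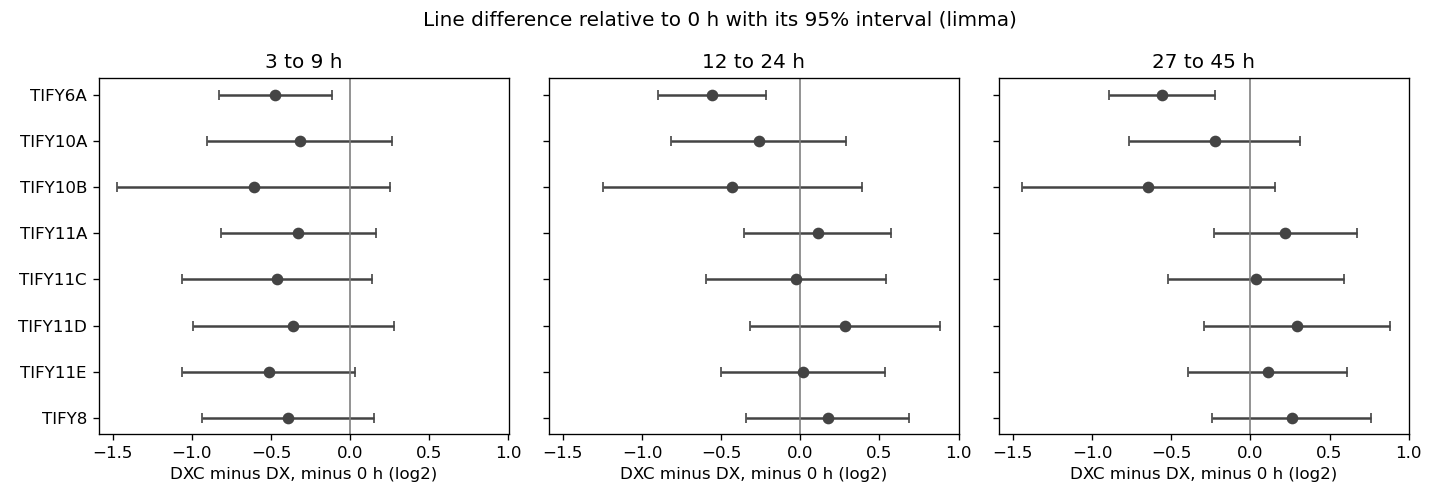
DXC minus DX difference in log2 units (x axis), averaged over 3 to 9 h, 12 to 24 h and 27 to 45 h, minus the difference at 0 h, for each TIFY feature (y axis). Points are limma estimates and bars their 95% intervals. All 8 points lie left of 0 in the early window, and the TIFY6A interval stays left of 0 in each window although its adjusted p did not pass.

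The tests over the whole course called no member. None of the 8 was called for a course over 45 h that differed between DXC and DX (limma F test, lowest adjusted p 0.513 for TIFY6A, 1 unadjusted p under 0.05), where 0.969% of all features were called. Within DXC no member was called for an effect of time (lowest limma adjusted p 0.233 for TIFY11A, 1 unadjusted p under 0.05), where 5.37% of all features were. Within DX none was called either (lowest limma adjusted p 0.505 for TIFY8, 1 unadjusted p under 0.05), against 0.371% of all features. Hour by hour against 0 h, limma called 0 of 120 member changes in DXC (12 with an unadjusted p under 0.05) and 0 of 120 in DX (7 with an unadjusted p under 0.05), against 0.714% of all features and hours in DXC and 0.00255% in DX.

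The shape of the courses is therefore given as levels. TIFY10B in DXC had its highest mean at 15 h (7.17 ± 0.12, SD, n = 3) and its lowest at 33 h (6.19 ± 0.54). In DX it ran between 6.79 ± 0.33 at 6 h and 6.15 ± 0.21 at 30 h. In DX, 5 members, TIFY10A, TIFY10B, TIFY11D, TIFY11E and TIFY8, had their highest mean at 6 h, the first sampling after the medium was renewed. TIFY11D, for example, had 6.85 ± 0.17 at 6 h and 6.04 ± 0.13 at 12 h in DX. How many of all features had their highest DX mean at 6 h was not determined. The DX arrays of experiments 1 and 3 at 0 to 9 h are among the 4 stretches with the lowest spread of values. TIFY8 averaged 4.11 and 4.48 in them, against a median of 3.61 in the 20 other stretches. What part the spread had in these DX peaks was not tested. All 8 estimates of 6 h minus 0 h in DX were above 0, with a median of 0.44 against 0.01 over all features, and none passed. TIFY11A and TIFY8 had their highest DXC means at 27 h, at 4.21 ± 0.48 and 3.96 ± 0.33, and the DXC arrays of experiments 1 and 2 at 24 to 33 h are among those with a low spread of values. Between 24 and 0 h, the same time of day, no member passed in either line.

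Across the renewal of the medium, 6 h minus 3 h, limma called none of the 8 in DXC (0 with an unadjusted p under 0.05) or in DX (1 with an unadjusted p under 0.05), where 0.789% of all features were called in DXC and 0% in DX. TIFY6A moved by -0.28, -0.17 and -0.41 in the 3 DXC experiments, and by 0.49, 0.23 and 0.25 in the 3 DX experiments.

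Late in the course 1 experiment stood apart in DXC. In DXC at 45 h, TIFY10B had 6.27 and 5.87 in experiments 1 and 2 and 8.37 in experiment 3, against 6.88, 6.39 and 5.97 in DX. TIFY11D had 6.24, 6.11 and 8.14 in DXC, against 6.78, 5.93 and 5.84 in DX. TIFY10A had 5.74, 5.38 and 7.52 in DXC, against 5.41, 5.68 and 5.52 in DX. In each of these the third DXC array stood alone above the other 5 arrays, and the other DXC arrays lay within or near the range of DX. TIFY11C had the same form, with 4.16, 3.86 and 5.53 in DXC, against 4.28, 3.92 and 3.80 in DX. These 4 of 8 members stood over 1 log2 unit above both other DXC arrays, where 1.89% of all features did. They also had their highest of 96 values in that array, where 3.3% of all features did.

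The same experiment already stood apart 3 h earlier. At 42 h TIFY10B had 6.25, 6.16 and 7.75 in DXC, against 7.18, 6.40 and 6.38 in DX. TIFY11E peaked there, with 3.70, 3.67 and 5.18 in DXC, against 3.47, 3.58 and 3.65 in DX. At 42 h 3 members, TIFY10A, TIFY10B and TIFY11E, were over 1 log2 unit above both other DXC arrays, where 0.925% of all features were. In the other 94 arrays, the count of such members was 0 or 1. At 45 h TIFY8 did not join, with 3.81, 3.72 and 3.41 in DXC. TIFY6A had 6.49, 6.38 and 6.90 in DXC at 45 h, highest in experiment 3 but by less than 1 log2 unit. The same held for TIFY11A (3.98, 3.81 and 4.33) and TIFY11E (3.71, 3.63 and 4.61) in DXC at 45 h. For TIFY6A, TIFY11A and TIFY11E the experiment 3 array also stood above every DX array of that hour.

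None of these late differences was called by limma at 45 h (2 with an unadjusted p under 0.05), where 0.191% of all features were. With every array, TIFY10A differed by 0.67 (SE 0.25, limma adjusted p = 0.231), TIFY11D by 0.65 (SE 0.28, limma adjusted p = 0.320), TIFY11C by 0.51 (SE 0.26) and TIFY10B by 0.42 (SE 0.37). Without the DXC arrays of experiment 3 at 42 and 45 h, the 45 h differences were 0.02 for TIFY10A, -0.01 for TIFY11D, 0.01 for TIFY11C and -0.35 for TIFY10B. Leaving them out also lowered the estimated spread, and TIFY11D at 6 h was then called lower in DXC beside TIFY8 (-0.84, limma adjusted p = 0.0332). That array pair was singled out after its values were seen.

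**Figure D4:**
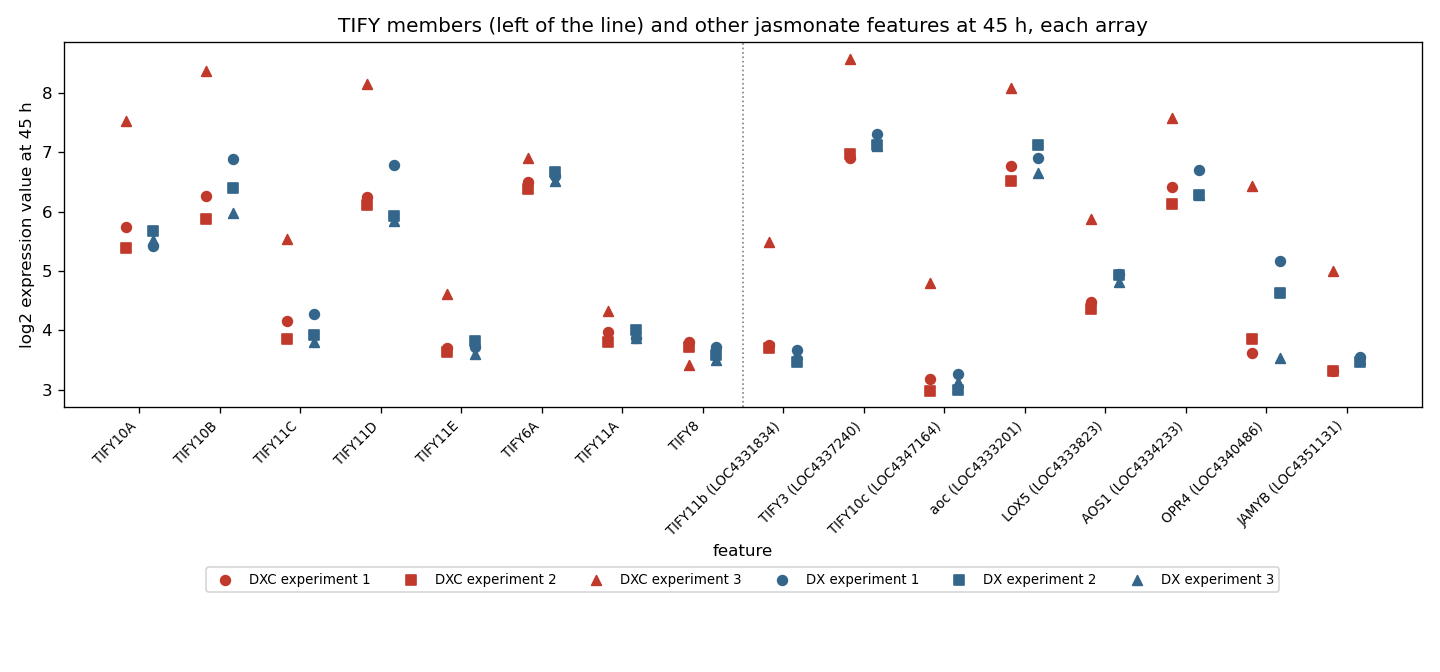
Log2 expression values at 45 h (y axis) of the 8 TIFY features, left of the dotted line, and of other TIFY and jasmonate genes chosen for their high value in 1 array, right of it. Each symbol is 1 array, red for DXC and blue for DX, with a shape for each experiment. The red triangles of experiment 3 stand above all other points for each TIFY feature left of the line except TIFY8, and for each gene right of it. Left of the line, the gap to both other DXC arrays is over 1 log2 unit for TIFY10A, TIFY10B, TIFY11C and TIFY11D only.

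Other genes of the pathway were high in the same array. Among 10 further TIFY features, TIFY11b (LOC4331834), TIFY3 (LOC4337240) and TIFY10c (LOC4347164) were over 1 log2 unit above both other DXC arrays at 45 h, with 3.75, 3.70 and 5.48 for TIFY11b and 6.90, 6.97 and 8.57 for TIFY3. TIFY11A, TIFY11C and TIFY11b are next to each other in the genome with no gene between them, and TIFY11E and TIFY11D are separated by 3 genes. Of 29 genes of jasmonate synthesis, perception and response, 6 did so, 5 of them among the 18 synthesis genes. These were the allene oxide cyclase gene AOC, the allene oxide synthase genes AOS1 and AOS2, the lipoxygenase gene LOX5 and an oxophytodienoate reductase gene (LOC4340486). The sixth was JAMYB, a jasmonate-inducible MYB gene. LOC4340486 had 3.62, 3.85 and 6.43 in DXC at 45 h, against 5.17, 4.62 and 3.54 in DX. None of the 7 clock, 7 leaf photosynthesis or 8 shoot meristem features was over 1 log2 unit above both other DXC arrays at 45 h. With 1.89% of all features so, lists of this size would often hold none, and no contrast is drawn from them. These genes were named after their values were seen, and what set this array apart was not tested.

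Of the 29 jasmonate features at 15 hours, 2 of 435 line differences were called by limma, where 0.648% of all features and hours were. COI1B (LOC4338955), which encodes 1 of the rice COI1-type receptors, was higher in DXC at 3 h. It had 7.13, 7.34 and 7.28 in DXC, against 5.92, 6.95 and 5.70 in DX, and the difference was 1.06 (SE 0.27, limma adjusted p = 0.0358). The DX array of experiment 2 stood near the DXC arrays and the other 2 far below; those 2 belong to the stretches with the lowest spread of array values, whose part in this difference was not tested. COI2 (LOC4332349), a related receptor gene, was lower in DXC at 12 h, with 5.80, 5.75 and 5.79 in DXC, against 6.47, 6.96 and 6.51 in DX (-0.86, SE 0.22, limma adjusted p = 0.0409). COI1A and NINJA1 were not called at any hour. At 6 h NINJA1, the adaptor gene, had 6.33, 6.39 and 6.43 in DXC, against 5.54, 6.25 and 5.53 in DX (0.61, limma adjusted p = 0.246). ASP1, a TOPLESS-type co-repressor gene, had an adjusted p of 0.870 in the limma test of the whole course.

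Among the genes that act before the repressors, OPR3 (LOC4340487), an oxophytodienoate reductase gene, had the lowest p of the synthesis genes for a line by time effect (limma adjusted p = 0.705). It had 4.78, 4.97 and 5.06 in DXC at 6 h, against 5.75, 4.96 and 6.06 in DX. LOX3, LOX8 and LOX2 followed it (limma adjusted p = 0.810, 0.882 and 0.897). Another feature also named OPR3 (LOC4345762) had 5.40, 5.37 and 5.31 in DXC at 6 h, against 5.20, 5.50 and 5.17 in DX. JAR1, whose enzyme joins jasmonate to isoleucine, had a limma adjusted p of 0.903. Among the transcription factor genes, BHLH148 (LOC4334060), whose protein is known to interact with a rice JAZ protein, had 4.32, 3.83 and 3.95 in DXC at 6 h, against 4.6, 4.43 and 5.04 in DX. Its groups did not overlap, the difference was -0.66 (SE 0.26, limma adjusted p = 0.252), and MYB30 and JAMYB gave adjusted p of 0.864 and 0.967 over the course. No feature was matched to MYC2.

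Of the 10 other TIFY features, none was called for a line difference at any of the 15 hours (17 of 150 with an unadjusted p under 0.05 by limma) or for the line by time effect. TIFY2b, TIFY1b, TIFY5 and TIFY9 had the lowest p for that effect (limma adjusted p = 0.581, 0.635, 0.704 and 0.775). TIFY5 (LOC4342421) had 4.16, 3.62 and 3.83 in DXC at 6 h, against 4.85, 4.04 and 5.73 in DX (-1.0, SE 0.36, limma adjusted p = 0.208). TIFY2a (LOC4328300) was the 1 of 10 with an effect of time in DXC (limma adjusted p = 0.0285), where 5.37% of all features had one. Its DXC mean was highest at 9 h (6.53 ± 0.06, SD, n = 3) and lowest at 33 h (5.95 ± 0.09).

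The courses of the members were also compared with those of all features that carry 1 gene symbol, by Pearson's r over the 32 means of line and hour, which share arrays and time points. TIFY10B was most like TIFY3, the JAZ gene also called EG2 for its role in spikelet development (r = 0.84, and 0.87 without experiment 3), and next like RSR1, an AP2-type transcription factor gene (0.80). TIFY10A was most like TIFY11b (0.72, and 0.52 without experiment 3). TIFY11D and TIFY11E were both most like BHLH148 (0.84 and 0.85, and 0.65 and 0.62 without experiment 3). The 4 remaining members were most like genes outside the family, TIFY11A like CDKF;2 (0.91), TIFY8 like LOC4349750 (0.92), TIFY11C like LOC9272270 (0.90) and TIFY6A like LOC4334888 (0.85). TIFY11A and TIFY8 stood highest in the stretches with the lowest spread of array values, and TIFY11C, TIFY11D and TIFY11E lay above their other medians there. What part the spread had in the r values of these members, with each other and with other genes, was not tested. The second most like genes, other than RSR1, carry no further name in the table: LOC4349524 for TIFY10A (0.71), LOC4334356 for TIFY11D (0.84), LOC4337685 for TIFY11E (0.82), LOC4328263 for TIFY11A (0.91), LOC4329422 for TIFY8 (0.92), LOC4347248 for TIFY11C (0.89) and LOC4347499 for TIFY6A (0.83). Without experiment 3, r was 0.47 for LOC4349524 with TIFY10A, 0.45 for LOC4337685 with TIFY11E and 0.63 for RSR1 with TIFY10B. Among the members themselves, TIFY11C and TIFY11D were most alike (0.83), followed by TIFY11A and TIFY8 (0.79), and TIFY10B and TIFY11A were least alike (-0.55). Without experiment 3 the order at the top changed, with TIFY11A and TIFY11C at 0.79 and TIFY11C and TIFY11D at 0.77.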

How the data were processed

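Total RNA of stem bases (200 ng) was labelled with biotin and hybridised to single-colour Affymetrix arrays, per the labels' protocols. The authors deposited log2 expression values, made with GCRMA per the submitters' processing notes, whose version is not given in the sources used here. Every one of the 96 columns was matched to a sample by its label. The values ran between 1.82 and 12.92, array SDs between 1.40 and 1.68, and the highest correlation between 2 arrays was 0.989, so no array was counted as deposited in duplicate. No scanner files, detection calls or scan dates were used here, so the precision is limited by the number of arrays. Gene names came from the platform annotation and the RefSeq gene table of assembly ASM3414082v1, used for names and gene order only. Of the features, 24161 carried 1 symbol, 90 several and 12392 none.

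All features, with no filter, were fitted with limma 3.58.1 in R 4.3.3 (lmFit, eBayes with an intensity trend) on 32 groups of line and hour with 3 arrays each (64 residual degrees of freedom), with Benjamini-Hochberg adjustment over all features and, for hourly contrasts, all hours. Features were called at an adjusted p under 0.05. Replicate numbers mark independent experiments, so the block on experiment is a paired fit. Over 48 pairs, same-numbered DXC and DX arrays had a mean correlation of deviations of 0.05, and other pairs -0.03. The stretches of 4 consecutive hours are no batch named in the labels; their arrays had a consensus correlation of 0.44. Pathway genes named were those with the lowest p for the line by time effect in each role, up to 4, plus COI1, NINJA and MYC2 genes. The members, lists and tests were chosen with earlier results of these data known. Alternatives were the block, the stretches as a random block, quantile normalization, no intensity trend, a minimum mean of 4, leaving out each experiment, no subtraction of the 0 h difference, and a fit of the compared arrays alone. Sequences were not analysed here.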

Additional observations from a re-analysis of the deposited data

Results flagged for a closer look

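TIFY6A moved in opposite directions in the 2 lines across the renewal of the medium. Between 3 and 6 h its mean change was -0.287 log2 units in DXC (SD 0.12, lower in 3 of 3 experiments) and 0.323 in DX (SD 0.14, higher in 3 of 3 experiments). Neither change passed limma's adjustment over all features, and the difference between these changes was not tested. How many of all features moved in this way was not determined. Mean changes were also below 0 in DXC and above 0 in DX for TIFY10A, TIFY10B (-0.281 and 0.415) and TIFY8, without the same sign in all DXC experiments. TIFY11A had the reverse signs, and TIFY11C, TIFY11D and TIFY11E rose on average in both lines.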

How the results depend on the processing

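Counts of members called under each alternative differed in these cases. For the 120 hourly line differences (1 called), quantile normalization gave 2, a minimum mean of 4 gave 0 because TIFY8 was then not tested, leaving out 1 experiment gave 0 to 1, and leaving out the DXC arrays of experiment 3 at 42 and 45 h gave 2. That last alternative and the combined ones were added after seeing the data. For the windows (0 called), array stretches as a random block gave 1 and quantile normalization 1, both TIFY6A early (limma, -0.47 with adjusted p = 0.0350, and -0.53 with adjusted p = 0.0382). Without subtracting 0 h the count was 6, with quantile normalization added 8, and with the random block added 4. For change over 0 h in DXC (0 called), the random block and quantile normalization gave 1 each, TIFY6A at 6 h. The time effect in DXC gave 0 to 2 without 1 experiment, the 2 being TIFY10B and TIFY11A without experiment 3 (limma adjusted p = 0.0128 and 0.0304), where 20.1% of all features were called. Signs turned in the windows without subtraction of 0 h: TIFY10A early 0.0538 and TIFY10B early 0.106, with the same values under the random block, then TIFY10B middle 0.285 (quantile-normalized 0.273) and late 0.0709 (0.0371). At 45 h, leaving out 1 experiment gave -0.568 to 0.936 for TIFY10B, -0.0921 to 0.834 for TIFY11C and -0.180 to 1.24 for TIFY11D, each lowest without experiment 3, and without the 2 DXC arrays TIFY10B was -0.346 and TIFY11D -0.00986. The replicate block on experiment, a paired fit, kept the TIFY8 call at 6 h (-0.925, limma adjusted p = 0.0153) and changed no other call. The cause of these changes was not tested. The other 84 counts of calls equalled the reported ones. Most of these were 0, and a count that stays at 0 says little about how stable a result is. With 3 arrays per group, the 95% interval of the TIFY10B early window difference reached -1.47, the widest of the 8, and the dim features TIFY11A, TIFY11C, TIFY11E and TIFY8 have no detection calls here.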
